A study of Mus musculus with 18 samples.

Results

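The genes described here encode lysosomal hydrolases and membrane proteins. They were taken from the deposited expression table by gene symbol from a list of 37 names, and all 37 were found among the 22708 genes of the table. The list holds 10 glycosidases, 5 sulfatases, 7 lipid hydrolases and their activators, 4 cholesterol transfer and membrane proteins, and 11 cathepsins and other proteases. The names were chosen with earlier results of these data known.

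Lysosomes are acidic compartments in which enzymes take apart proteins, lipids, sugar chains and nucleic acids that reach them by endocytosis, phagocytosis or autophagy. Most of the soluble enzymes carry a mannose 6-phosphate tag that directs them there, a proton pump (the vacuolar ATPase) acidifies the lumen, and heavily glycosylated membrane proteins line it. Eosinophils are granulocytes whose secretory granules are related to lysosomes and share some of their contents.

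Cells of the small intestine of C57/BL6 mice were sorted for eosinophils by surface phenotype (CD11b+, MHC-II-, SiglecF+, high side scatter), and bulk RNA was sequenced in 18 samples. The mice were wildtype (WT), Ahr knockout (Ahr-KO) or Ahrr knockout (Ahrr-KO), with 6 samples each, of which 3 were from males and 3 from females. Ahr encodes AHR, the aryl hydrocarbon receptor, which switches on genes when small molecules bind it, and Ahrr encodes its repressor, so the comparisons ask what differs when either gene is disrupted. No treatment was given, the age of each mouse was not in the labels, and by the study's methods the Ahr-deficient and WT mice were neither littermates nor housed together, so that litter or housing and genotype cannot be told apart.

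Values are the authors' variance-stabilized values, which are close to log2 of a normalized count for abundant genes and flatten out for rare ones. A count of 0 became the lowest value of the table. Because the transformation could be turned back exactly, whole counts were also available, and they are called normalized counts where divided by the sample's size factor. Total counts were 3842977 to 8149200 per sample in WT, 6581818 to 10284124 in Ahr-KO and 8788867 to 12046933 in Ahrr-KO, so rare genes were measured less precisely in WT. WT F3, the sample with the lowest total, had counts for 20244 genes and Ahr-KO F3 for 19694, against 15146 to 17236 in the other 16. Both samples are in the results below, and counts of called members without them are given beside those of the genotype comparisons.

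The targeted genes were looked at first. *Ahr* had 10766, 13774 and 21592 normalized counts (lowest, median and highest sample) in WT and 18084, 23973 and 26050 in Ahr-KO, so its transcript was not lower in the knockout. *Ahrr*, a target of AHR, had 819 to 1281 normalized counts in WT and 0 to 9.43 in Ahr-KO, and *Cyp1b1*, another target, had 349 to 1134 and 0.758 to 4.71. Every sample labelled Ahr-KO thus lacked the transcripts of both AHR targets almost completely. In the samples labelled Ahrr-KO, *Ahrr* had 925 to 1888 normalized counts and was not lower than in WT, and *Cyp1b1* had 553 to 1339. Where the deleted stretch is unknown, counts summed along all exons cannot show whether it is gone, so the Ahrr genotype rests on the label alone, and directions below are those of the samples labelled Ahrr-KO.

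The sorted cells carried eosinophil transcripts. The most abundant gene of a list of 12 eosinophil markers was *Alox15* with a mean of 18966 normalized counts over the 18 samples, and the surface receptors *Ccr3* (8965 to 14974 in WT) and *Siglecf* (1619 to 2306 in WT) were abundant. Of the granule protein genes, *Epx* had 4.01 to 14.5 normalized counts in WT, and *Prg2* had 48.7 to 136 in WT and 325 to 925 in Ahr-KO. The summed level of the list was 29189, 42581 and 46312 (lowest, median and highest) in WT, 45383, 50919 and 57748 in Ahr-KO and 17979, 38278 and 45917 in Ahrr-KO. Of the samples labelled Ahrr-KO, M3 (17979) and F3 (26350) were lowest and F1 was highest.

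In WT, members differed 467-fold in level when normalized counts were divided by the length of the main coding transcript. The cathepsin *Ctsh*, an aminopeptidase, was highest with 2551 ± 626 normalized counts per kb (SD, n = 6), followed by the alpha-mannosidase *Man2b1* with 2212 ± 208. Neither exceeded the other in every sample. The membrane glycoproteins *Lamp1* (1221 ± 29.4) and *Lamp2* (1165 ± 385) and the ganglioside activator *Gm2a* (1037 ± 116) came next, and their order changed from sample to sample. The aspartic protease *Ctsd* followed with 732 ± 94.0, below *Gm2a* in 6 of 6 samples.

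At the other end stood *Naglu* with 5.46 ± 2.49 normalized counts per kb and *Sgsh* with 10.7 ± 2.17, both enzymes of heparan sulfate breakdown, and *Sgsh* was the higher of the pair in 6 of 6 samples. *Pla2g15*, a lysosomal phospholipase (14.8 ± 7.27), *Galc*, which removes galactose from galactosylceramide (16.3 ± 4.55), *Arsa*, which desulfates sulfatide (16.4 ± 2.75), and *Smpd1*, the acid sphingomyelinase (18.8 ± 4.26), were not separated beyond their spread. The order depends on the length used: over all annotated exons *Man2b1* led and 3 members stood above *Ctsh*, and *Galc* was last.

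**Figure D1:**
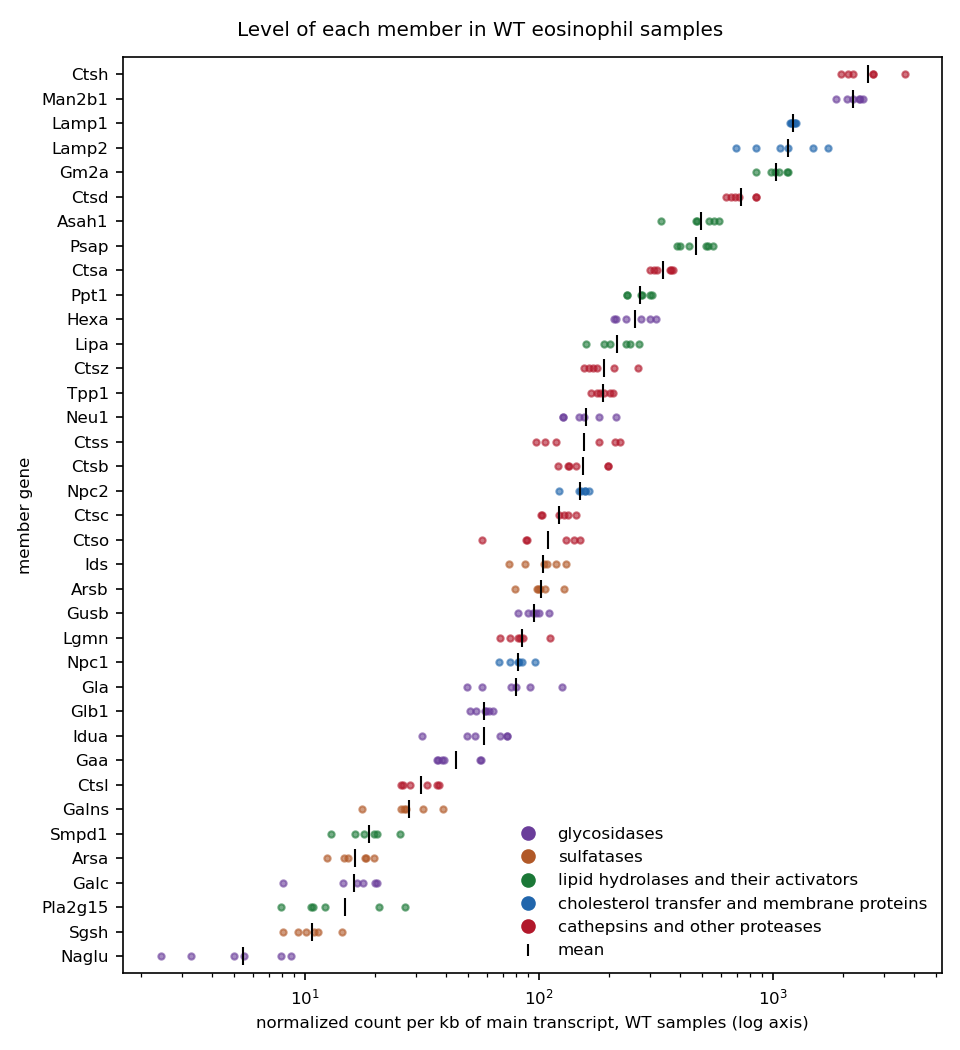
Level of each member in the 6 WT samples, as normalized counts per kb of the main coding transcript on a log axis, with genes from highest to lowest mean. Points are samples coloured by role and the bar is the mean; *Ctsh* and *Man2b1* stand at the top (2551 and 2212) and *Naglu* at the bottom (5.46).

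Between Ahr-KO and WT, 10 of the 37 members were called by limma at an adjusted p below 0.05, where 8.84% of the 11346 genes tested were called. Of these, 9 were higher in Ahr-KO (5.16% of all genes tested) and 1 was lower (3.68%). All 37 members passed the minimum mean, and 29 of them had a higher mean in Ahr-KO. *Naglu*, 1 of the 29, passed only through its level in Ahr-KO, so the filter favoured its direction. The median difference over the members was 0.25 against -0.0041 over all genes tested. In 5 members the values of the 6 Ahr-KO samples and of the 6 WT samples did not overlap, which held for 4.51% of all genes tested. The members called higher were *Ctsc*, *Pla2g15*, *Lgmn*, *Lipa*, *Npc2*, *Ctsh*, *Neu1*, *Arsb* and *Gusb*, and the member called lower was *Ctsl*. In bulk RNA, fewer cells with a transcript and less RNA per cell cannot be told apart.

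These counts depended on single samples, and so did those over all genes tested. With 1 sample left out, 5 to 11 members and 623 to 1124 of all genes were called (1003 with all samples). The count of members was 6 without WT M2 (928 over all genes), 6 without Ahr-KO F1 (623), 5 without Ahr-KO F2 (677) and 6 without Ahr-KO M3 (685). Without WT F3 and Ahr-KO F3 together it was 6, with 586 over all genes (*Ctsc*, *Ctsl*, *Lipa*, *Lgmn*, *Pla2g15* and *Npc2*), with a median difference of 0.19. With the Ahrr-KO samples added to the fit it was 3 (*Ctsc*, *Lgmn* and *Pla2g15*), with 553 over all genes. No called member changed direction under any alternative.

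**Figure D2:**
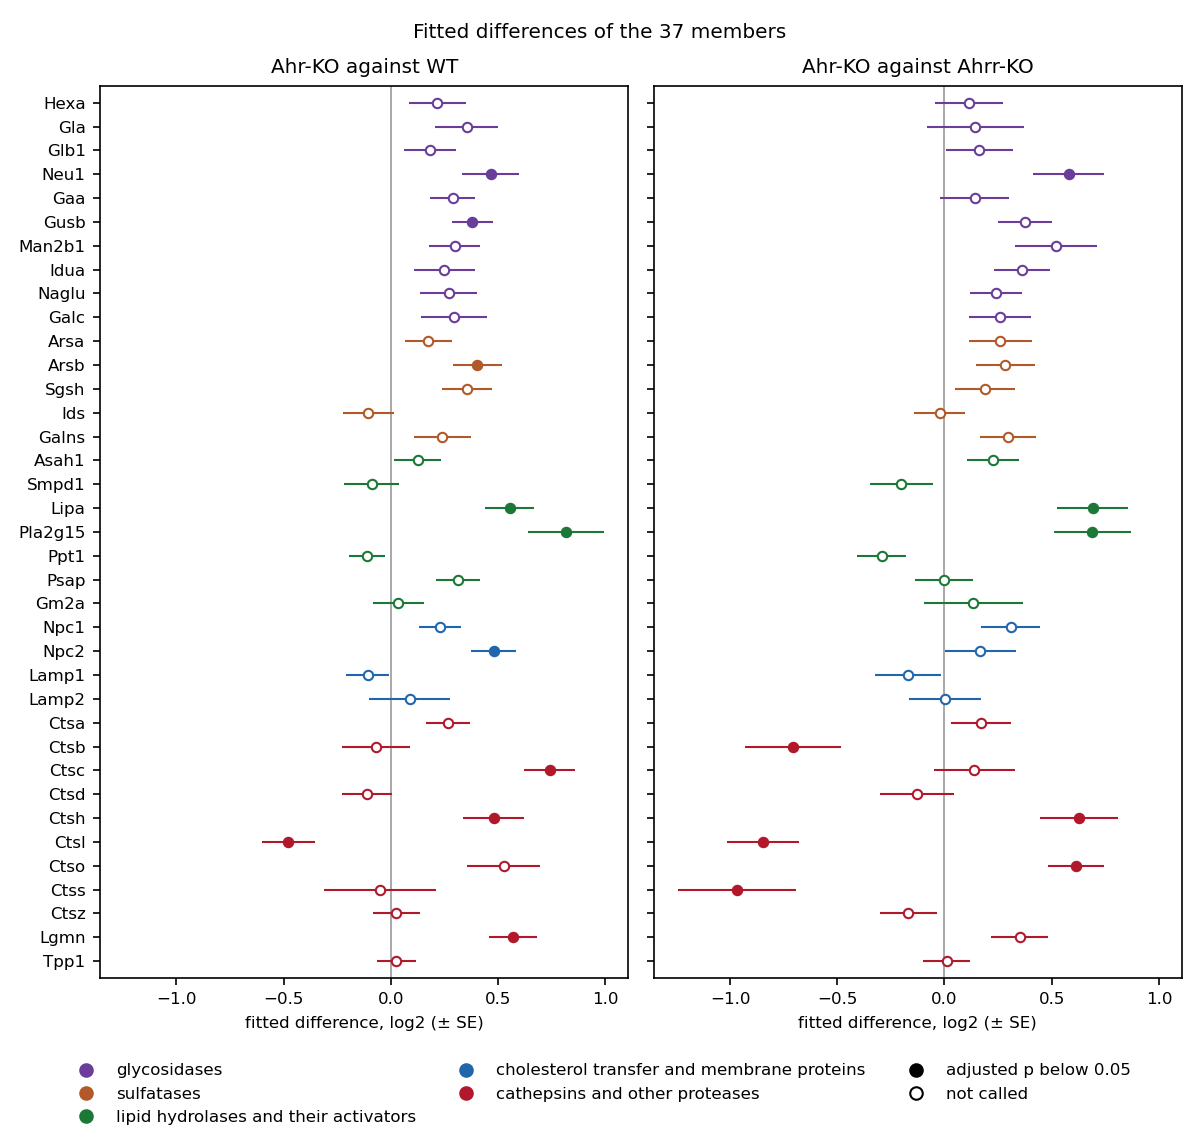
Fitted difference of each member on the log2 scale with its standard error, Ahr-KO minus WT on the left and Ahr-KO minus the samples labelled Ahrr-KO on the right. Filled points were called at an adjusted p below 0.05 by limma over all genes; *Ctsl* lies left of 0 in both panels (-0.48 and -0.85), and *Lipa* and *Pla2g15* lie right of 0 in both.

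The glycosidases remove sugars from glycoproteins, glycolipids and glycosaminoglycans. All 10 had a higher mean in Ahr-KO than in WT, with differences of 0.18 to 0.47 and 2 calls. *Naglu*, among them, passed the minimum mean only through its level in Ahr-KO, so the filter favoured its direction. All 10 were also higher with each sample centred on its median and after quantile normalization, where *Man2b1* was called too. *Neu1*, the sialidase that removes terminal sialic acid (chr17:34931253-34935953, GRCm38), had values of 8.55, 8.78 and 9.21 (lowest, median and highest) in WT, 8.92, 9.27 and 9.68 in Ahr-KO and 7.83, 8.65 and 9.35 in Ahrr-KO. The lower Ahr-KO samples lay among the WT samples, and the 3 highest Ahr-KO samples were females. Its difference between Ahr-KO and WT was 0.47 (SE 0.13, adjusted p = 0.0384 by limma), and 8 of the 12 single omissions ended the call (adjusted p up to 0.101).

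*Gusb*, the beta-glucuronidase (chr5:129989011-130003049), had values of 8.13, 8.32 and 8.49 in WT, 8.53, 8.72 and 8.82 in Ahr-KO and 7.96, 8.33 and 8.73 in Ahrr-KO. Every Ahr-KO sample lay above every WT sample. The difference was 0.38 (SE 0.10, adjusted p = 0.0206 by limma), and the call was lost without Ahr-KO F1, F2 or M3 (adjusted p up to 0.0579). Among the uncalled glycosidases were the alpha-galactosidase *Gla* (0.35), *Man2b1* (0.30), *Galc* (0.29), the glycogen-degrading alpha-glucosidase *Gaa* (0.29), *Naglu* (0.27), the alpha-iduronidase *Idua* (0.25), the hexosaminidase subunit *Hexa* (0.22) and the beta-galactosidase *Glb1* (0.18).

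Of the 5 sulfatases, which remove sulfate from glycosaminoglycans and sulfolipids, 4 had a higher mean in Ahr-KO and *Arsb* was called. *Arsb*, which acts on dermatan and chondroitin sulfate (chr13:93771630-93943016), had values of 8.58, 8.87 and 9.18 in WT, 9.12, 9.20 and 9.53 in Ahr-KO and 8.58, 8.94 and 9.33 in Ahrr-KO. A single WT sample, F2, reached into the range of Ahr-KO. The difference was 0.40 (SE 0.11, adjusted p = 0.0358 by limma), and 8 of the 12 single omissions ended the call (adjusted p up to 0.0949). Exons of *Arsb* overlap annotated noncoding genes on the other strand, from which its reads could not be separated if strand was not used in counting. Differences of the uncalled members were 0.35 for *Sgsh*, 0.24 for *Galns*, 0.17 for *Arsa* and -0.11 for *Ids*.

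Among the lipid hydrolases and activators, *Lipa* and *Pla2g15* were called higher in Ahr-KO. *Lipa*, the acid lipase that releases cholesterol and fatty acids from cholesteryl esters (chr19:34492318-34527474), had values of 9.07, 9.47 and 9.74 in WT and 8.63, 9.29 and 9.84 in Ahrr-KO, and ran from 9.84 to 10.17 in Ahr-KO. All Ahr-KO samples lay above all WT samples. The difference was 0.56 (SE 0.11, adjusted p = 0.00565 by limma), and it was called with any 1 sample left out.

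*Pla2g15* (chr8:106150399-106164715) was rare, with a mean of 40.2 normalized counts in WT and 107 in Ahr-KO, and had values of 6.16, 6.38 and 7.01 in WT, 6.91, 7.39 and 7.72 in Ahr-KO and 6.20, 6.73 and 7.01 in Ahrr-KO. The ranges of Ahr-KO and WT touched, as M1 and M2 of Ahr-KO lay just below the highest WT sample, F3. The difference was 0.82 (SE 0.18, adjusted p = 0.00880 by limma), and with any 1 sample left out the adjusted p stayed between 0.00616 and 0.0282. Over all alternatives the difference ran from 0.72 to 1.52. The other members of this role were not called: the saposin precursor *Psap* (0.31), the acid ceramidase *Asah1* (0.13), *Gm2a* (0.04, and below 0 in 1 of the scalings tried), *Smpd1* (-0.09) and the palmitoyl thioesterase *Ppt1* (-0.11).

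Of the cholesterol transfer and membrane proteins, *Npc2* was called. NPC2 binds cholesterol in the lumen and hands it to the membrane protein NPC1 for export. *Npc2* (chr12:84754562-84773152) had values of 8.87, 9.16 and 9.24 in WT, 9.31, 9.67 and 9.89 in Ahr-KO and 9.02, 9.36 and 9.92 in Ahrr-KO. Every Ahr-KO sample lay above every WT sample, while the samples labelled Ahrr-KO spread over both ranges. The difference between Ahr-KO and WT was 0.48 (SE 0.10, adjusted p = 0.00834 by limma), and it was called with any 1 sample left out. *Npc1* (0.23), *Lamp2* (0.09) and *Lamp1* (-0.11) were not called.

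The proteases went in both directions between Ahr-KO and WT, with 3 called higher, 1 called lower and a median difference of 0.03. *Ctsc*, which activates granule serine proteases by trimming their N-terminus (chr7:88278085-88310888), had values of 8.31, 8.54 and 8.72 in WT, 8.86, 9.26 and 9.56 in Ahr-KO and 8.16, 9.23 and 9.48 in Ahrr-KO. No Ahr-KO sample overlapped WT, and of the samples labelled Ahrr-KO 5 lay above WT and F1 lay below it. The difference between Ahr-KO and WT was 0.74 (SE 0.12, adjusted p = 0.000811 by limma), and with any 1 sample left out the adjusted p stayed between 0.000531 and 0.00347.

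*Lgmn*, the asparaginyl endopeptidase that processes several cathepsins (chr12:102394084-102439813), had values of 7.61, 7.81 and 8.15 in WT, 8.24, 8.36 and 8.59 in Ahr-KO, and a lowest value of 7.75 and a median of 8.05 in Ahrr-KO. All Ahr-KO samples lay above all WT samples, with WT F3 the nearest. The difference was 0.57 (SE 0.11, adjusted p = 0.00394 by limma), and it was called with any 1 sample left out.

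*Ctsh* (chr9:90054152-90076089) had values of 11.66, 11.97 and 12.55 in WT, 12.36, 12.41 and 12.77 in Ahr-KO and 11.19, 11.89 and 12.55 in Ahrr-KO. WT F2 lay within the range of Ahr-KO and the other WT samples lay below it. The difference between Ahr-KO and WT was 0.48 (SE 0.14, adjusted p = 0.0481 by limma). Of the 12 single omissions 10 ended the call, and it held without WT F2 or without WT M1, with adjusted p from 0.00787 to 0.119.

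*Ctsl*, a cysteine endopeptidase (chr13:64359337-64370890), was the member called lower. It had values of 7.78, 7.97 and 8.20 in WT, 7.22, 7.49 and 7.83 in Ahr-KO and 7.96, 8.27 and 9.17 in Ahrr-KO. Apart from Ahr-KO F3, which reached the lowest WT samples, the Ahr-KO samples lay below WT. The difference was -0.48 (SE 0.12, adjusted p = 0.0240 by limma), and the call was lost without WT M2 or Ahr-KO F1, F2 or M1 (adjusted p up to 0.0689). Exons of *Ctsl* overlap an antisense gene and a processed pseudogene, so its counts are uncertain. Differences of the uncalled proteases were 0.53 for *Ctso*, 0.26 for the carboxypeptidase *Ctsa*, 0.03 for the carboxypeptidase *Ctsz*, 0.03 for the tripeptidyl peptidase *Tpp1*, -0.05 for *Ctss*, -0.07 for *Ctsb* and -0.11 for *Ctsd*.

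**Figure D3:**
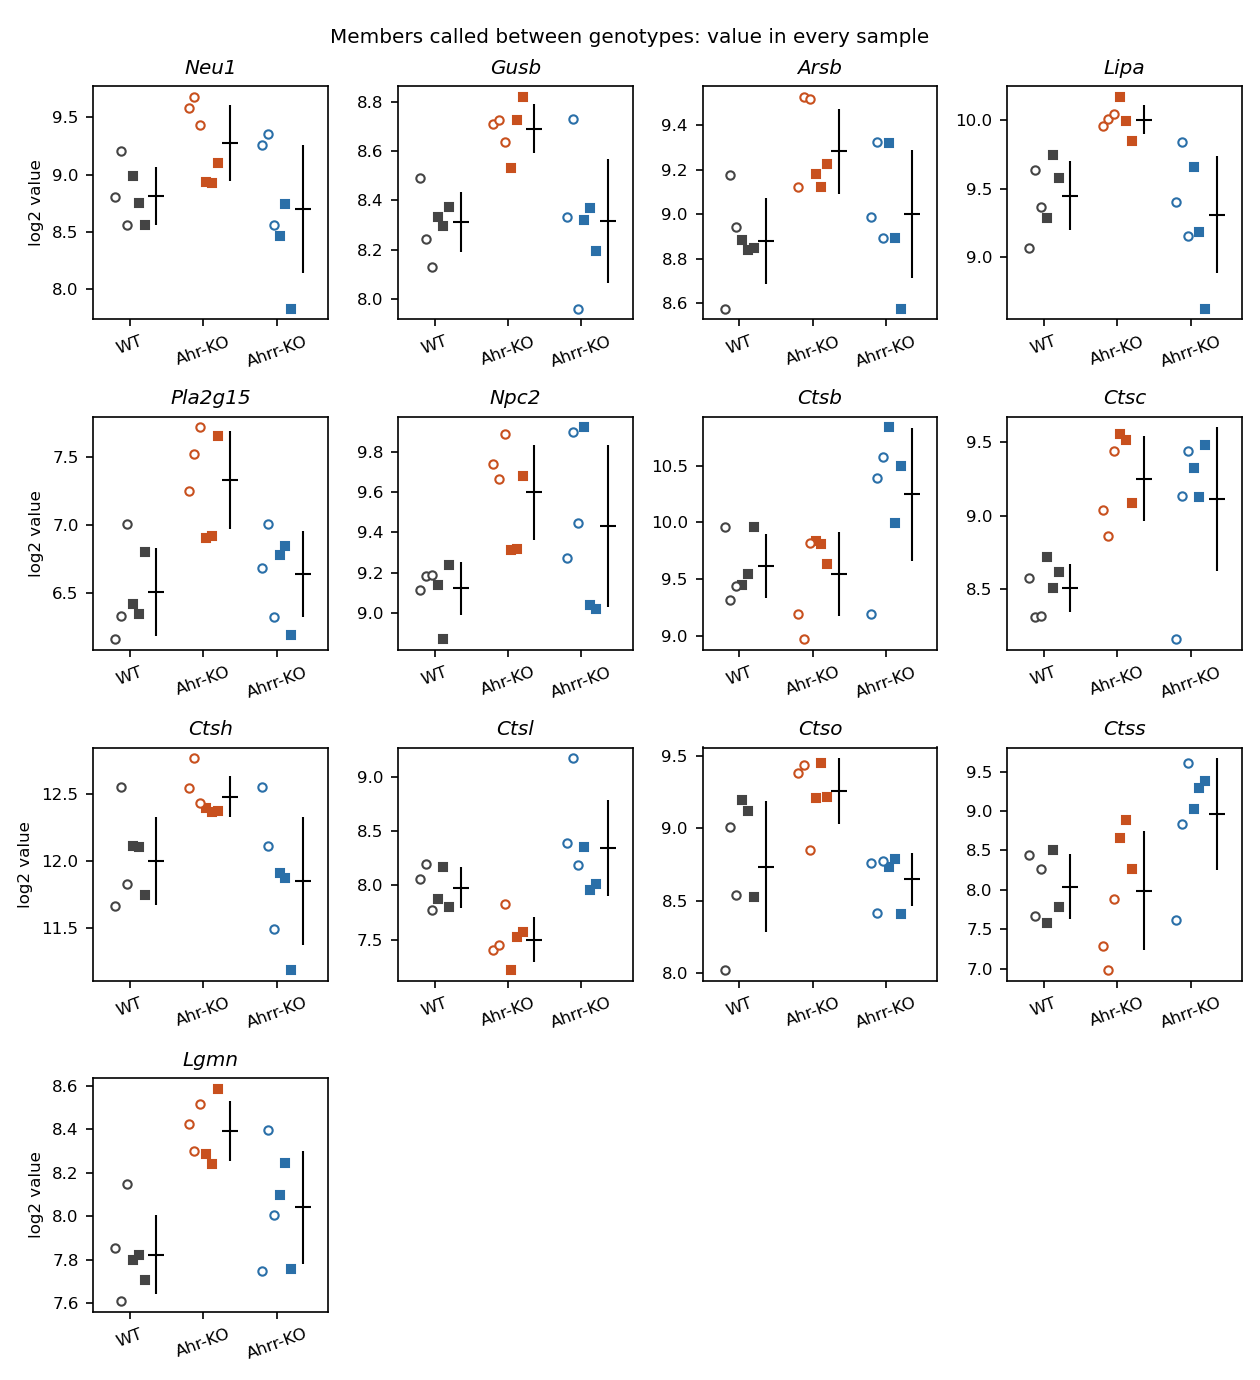
Deposited log2 values of the 13 members called in at least 1 comparison of genotypes, in every sample by genotype, with males as filled squares and females as open circles and the mean and SD in black; each panel has its own axis, which does not start at 0. *Gusb*, *Lipa*, *Npc2*, *Ctsc* and *Lgmn* show no overlap between Ahr-KO and WT.

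Between the samples labelled Ahrr-KO and WT, 0 of the 36 members tested were called by limma, where 0.0779% of the 11546 genes tested were (9 genes, with 853 at an unadjusted p below 0.05). Among the members 3 had an unadjusted p below 0.05, and voom, limma's model for counts, also called 0 of them. *Naglu* lay below the minimum mean in this comparison. No member was without overlap between the groups, which 0.459% of all genes tested were. The median difference was 0.07 against 0.01 over all genes tested, and it was -0.01 without Ahrr-KO F2. The 3 members were *Ctss* (0.92, SE 0.29), *Ctsb* (0.64, SE 0.23) and *Ctsc* (0.60, SE 0.18). Without Ahrr-KO F1, *Ctsc* (0.78, adjusted p = 0.0255) and *Ctss* (1.20, adjusted p = 0.0319) were called by limma, with 25 called over all genes. Without WT F3 the calls were 0 members and 6 of all genes.

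Between Ahr-KO and the samples labelled Ahrr-KO, 8 of 37 members were called, where 14.9% of the 11474 genes tested were. Of these, 5 were higher in Ahr-KO (6.84% of all genes tested) and 3 were lower (8.04%). With each sample centred on its median the 9 called members were 7 higher and 2 lower, and after quantile normalization the 11 were 8 higher and 3 lower. The balance over all genes turned over with these scalings, from 785 higher and 923 lower to 981 and 827 with centring and to 1029 and 819 with quantile normalization. The median difference of the members was 0.17 against 0.0026 over all genes tested. In 3 members the groups did not overlap, which held for 4.61% of all genes tested. This comparison shares its Ahr-KO samples with that against WT, so the calls of both are not independent of each other.

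The count of members moved with that over all genes, which was 1708 with all samples. It was 4 without Ahr-KO F1 (907 over all genes), without F2 (970) or without M1 (839), 5 without Ahr-KO M2 (933), 3 without Ahr-KO M3 (818), 5 without Ahrr-KO F3 (1001) and 3 without Ahrr-KO M3 (923), and it was 4 without sex in the model (994). It was 8 without Ahr-KO F3 (1990), 9 without Ahrr-KO F1 (2574) and 10 without Ahrr-KO F2 (2285). *Lipa* (0.69, SE 0.17, adjusted p = 0.0161), *Ctsl* (-0.85, SE 0.17, adjusted p = 0.00587) and *Ctso* (0.61, SE 0.13, adjusted p = 0.00843, all by limma) were without overlap between the groups and were called with any 1 sample left out. *Pla2g15* (0.69, SE 0.18, adjusted p = 0.0212 by limma) lost its call without Ahr-KO M3 or Ahrr-KO M3 (adjusted p up to 0.0579). Over all alternatives its difference ran from 0.60 to 1.31. *Ctsh* (0.63, SE 0.18, adjusted p = 0.0346) and *Neu1* (0.58, SE 0.17, adjusted p = 0.0323, both by limma) each lost theirs in 7 of the 12 single omissions (adjusted p up to 0.0785 and 0.0790).

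*Ctso*, a little studied cysteine protease (chr3:81932601-81956725), had values of 8.02, 8.77 and 9.19 in WT, 8.85, 9.30 and 9.45 in Ahr-KO and 8.41, 8.75 and 8.78 in Ahrr-KO. The WT samples lay on both sides of the Ahrr-KO range, and M1, M2 and F2 of WT reached into the range of Ahr-KO. Its difference between Ahr-KO and WT was called without WT F2 (adjusted p = 0.0339) or without WT M1 (adjusted p = 0.0430, both by limma).

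Cathepsins S and B were the remaining members called lower in Ahr-KO than in Ahrr-KO. *Ctss*, which cleaves the invariant chain during antigen presentation (chr3:95526786-95556403), had values of 7.58, 8.02 and 8.50 in WT, 6.98, 8.07 and 8.88 in Ahr-KO and 7.61, 9.16 and 9.61 in Ahrr-KO. Of the samples labelled Ahrr-KO, F1 lay at the bottom of the WT range and the other 5 lay above it, and in Ahr-KO the 3 females lay below the 3 males. The difference between Ahr-KO and Ahrr-KO was -0.97 (SE 0.28, adjusted p = 0.0323 by limma), and 5 of the 12 single omissions ended the call (adjusted p up to 0.0769).

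*Ctsb*, an abundant cysteine protease (chr14:63122462-63145923), had values of 9.31, 9.49 and 9.96 in WT, 8.97, 9.72 and 9.84 in Ahr-KO and 9.19, 10.44 and 10.84 in Ahrr-KO. Again F1 was the lowest of the samples labelled Ahrr-KO, and the other 5 lay above all WT and Ahr-KO samples. The difference was -0.71 (SE 0.22, adjusted p = 0.0480 by limma), and 9 of the 12 single omissions ended the call (adjusted p up to 0.108). Exons of *Ctsb* overlap those of *Fdft1* on the other strand.

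Macrophages and dendritic cells hold much *Ctss* and *Ctsb*, and the sort gate required the absence of MHC-II. All 16 genes of a macrophage and dendritic cell list were in the table and none was at 0 in all samples. Its summed level per sample was 15719, 18860 and 21584 normalized counts (lowest, median and highest) in WT, 20440, 21154 and 24013 in Ahr-KO and 17176, 20727 and 28852 in Ahrr-KO. Its most abundant gene was *Itgax*, which intestinal eosinophils also express. The sum was not called between Ahr-KO and WT (adjusted p = 0.0844) or between Ahrr-KO and WT (adjusted p = 0.214), by exact two-sided permutation tests of the log2 sum, adjusted over the 18 tests of 9 lists against WT.

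Between Ahr-KO and WT, *Csf1r* (0.49) and *Itgax* (0.42, without overlap) were called higher by limma and *Cd68* lower, of 13 genes of this list tested. Gene by gene, 12 of the 14 tested genes of this list had a higher mean in Ahrr-KO than in WT, 5 at an unadjusted p below 0.05 and 0 called by limma. Between Ahr-KO and Ahrr-KO 11 of 14 were lower in Ahr-KO, of which *Cd68* and *C1qb* were called, and *Itgax* was called higher. *C1qa*, counted in the 12, the 5 and the 11, passed the minimum mean only through its level in Ahrr-KO, so the filter favoured its directions. *Adgre1* (-0.35) and *Itgax* (-0.20) were lower in Ahrr-KO than in WT, and *Csf1r* overlapped (481 to 853 normalized counts in Ahrr-KO and 519 to 756 in WT). Without *Itgax* and *Adgre1*, a choice made after the values were seen, the sum had a median of 3523 in WT, 4460 in Ahr-KO and 10604 in Ahrr-KO. *Lyz2* and *C1qa* were also picked after their values were seen. *Lyz2* had 491, 645 and 1356 normalized counts in WT, 784, 1477 and 2648 in Ahr-KO and 529, 3428 and 7377 in Ahrr-KO. *C1qa* had 2.37, 10.6 and 30.7 in WT and 3.51, 60.1 and 116 in Ahrr-KO, and ran from 0 to 51.7 in Ahr-KO, so both genes also reached above WT in some Ahr-KO samples. As with *Ctsb* and *Ctss*, Ahrr-KO F1 was the lowest of its group in *Lyz2* and *C1qa*, and the other 5 lay above all WT samples. F1 was also the lowest of its group in the summed epithelial, B and plasma cell, T cell and mast cell lists below. The part of these transcripts in the differences of *Ctsb* and *Ctss* was not tested.

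**Figure D4:**
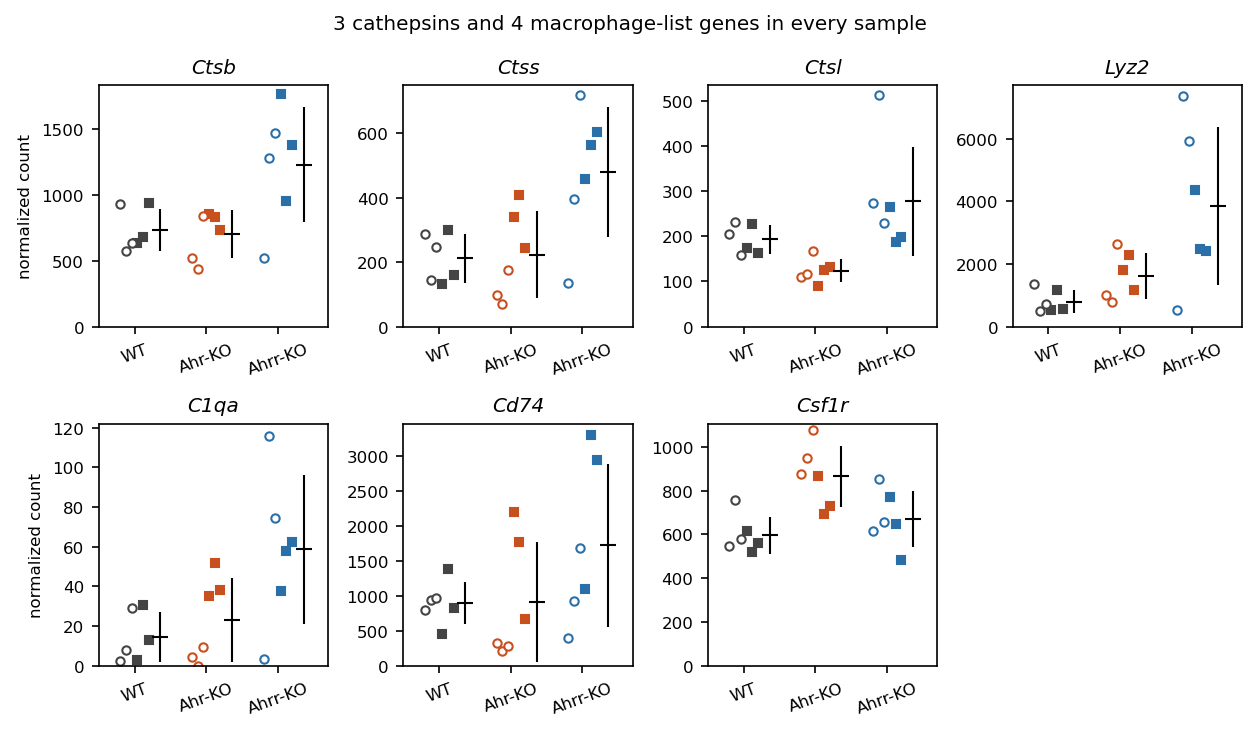
Normalized counts of 3 cathepsins called between Ahr-KO and Ahrr-KO and of 4 genes of the macrophage list, picked after their values were seen, in every sample by genotype, on axes that start at 0, with males as filled squares, females as open circles and the mean and SD in black. In *Ctsb*, *Ctss*, *Lyz2* and *C1qa* a single female, F1, is the lowest of the samples labelled Ahrr-KO, and the others lie above WT. The remaining panels differ. In *Ctsl* and *Csf1r* F1 is not the lowest of its group, and in *Cd74* F2 and M1 of Ahrr-KO lie within the WT range. *Ctsh* and *Ctso*, called higher in Ahr-KO than in Ahrr-KO, are not shown.

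The sums of 3 other lists were called between Ahr-KO and WT, but 2 of them were nearly a single gene. *Retnlg* made up 95.9% to 99.3% of the neutrophil sum in the Ahr-KO samples, and *Pecam1* made up 94.0% to 96.3% of that of fibroblasts and endothelium. The neutrophil list had 24276, 36202 and 49049 normalized counts in WT and 56089, 84338 and 113776 in Ahr-KO (adjusted p = 0.0195). The list of fibroblasts and endothelium had 2637, 3369 and 3841 in WT and 1921, 2145 and 2374 in Ahr-KO (adjusted p = 0.0195), and the eosinophil list was higher in Ahr-KO (adjusted p = 0.0260, all by exact permutation tests), with *Prg2* (2.30) and *Alox15* (0.58) called by limma. The first 2 had an unadjusted p of 0.00216, the smallest that 6 against 6 samples allow, and the defining neutrophil gene *Ly6g* had a median of 0 in WT and Ahr-KO. Of 7 neutrophil genes tested between Ahr-KO and WT, *Retnlg* and *Cxcr2* were called higher and *Mmp8* lower (-0.92), and of 3 genes of fibroblasts and endothelium only *Pecam1* was called. *Mmp8* had a mean of 8.67 normalized counts in Ahr-KO. It passed the minimum mean only through its level in WT, so the filter favoured its direction. Between Ahrr-KO and WT the neutrophil list sum was not called, while its genes *S100a8* (2.06) and *S100a9* (2.10) were called higher by limma. The part of these transcripts in the members' differences was not tested.

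The remaining lists were not called against WT. The epithelial list, led by *Sis*, had medians of 8341 in WT, 7601 in Ahr-KO and 21389 in Ahrr-KO, and the B and plasma cell list, led by *Jchain*, had 548, 286 and 3898. The pancreatic acinar list, led by *Ctrb1*, had 1321, 40.2 and 51.9. T cells and innate lymphocytes, led by *Cd4*, had 36.9, 41.9 and 88.8, and mast cells, led by *Cpa3*, had 6.71, 23.5 and 41.7. Sums of these lists differed widely between samples of 1 genotype. Gene by gene, all 7 pancreatic genes tested were lower in Ahr-KO than in WT, and *Ctrb1* (-2.74), *Cela2a* (-1.55) and *Prss2* (-1.22) were called by limma. *Cela2a*, *Prss2*, *Cpa1* and *Pnlip* were not tested between Ahr-KO and Ahrr-KO. They passed the minimum mean only through their level in WT, so the filter favoured a lower direction. The same held for *Ctrb1* between Ahr-KO and WT, with a median of 2.84 normalized counts in Ahr-KO (highest sample 217). Between Ahrr-KO and WT, all 8 pancreatic genes tested were lower in Ahrr-KO. Among them *Cela3b*, *Cela2a* and *Cpa1* had medians of 1.48, 0.722 and 4.06 normalized counts in Ahrr-KO. These 3 passed the minimum mean only through their level in WT, so the filter favoured this direction. All 12 epithelial genes and 6 of 7 genes of fibroblasts and endothelium were higher in Ahrr-KO than in WT, with 0 called in these lists. *Dcn*, 1 of the 6, had a mean of 13.0 normalized counts in WT. It passed the minimum mean only through its level in Ahrr-KO, so the filter favoured its direction. *Col1a2*, *Cdh5* and *Kdr* were rare in WT as well (means of 17.7, 18.9 and 22.3 normalized counts).

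Between Ahr-KO and the samples labelled Ahrr-KO, in which 8 members were called, genes of other cell types moved as well. All 12 epithelial genes were lower in Ahr-KO and 6 were called by limma (*Sis*, *Krt19*, *Epcam*, *Krt8*, *Cdh1* and *Krt18*), as was *Jchain* (-3.20). The 7 fibroblast and endothelial genes tested were all lower too, and *Col1a2* and *Cdh5* were called. Like *Dcn* and *Kdr*, both were not tested between Ahr-KO and WT. They passed the minimum mean only through their level in Ahrr-KO, so the filter favoured a lower direction in Ahr-KO. *Retnlg* was called higher and *Mmp8*, *S100a8* and *S100a9* lower. *Mmp8* passed the minimum mean here only through its level in Ahrr-KO, so the filter favoured its direction. All 7 eosinophil genes tested were higher in Ahr-KO, and *Prg2*, *Alox15*, *Il5ra* and *Siglecf* were called. The part of these transcripts in the members' differences was not tested.

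**Figure D5:**
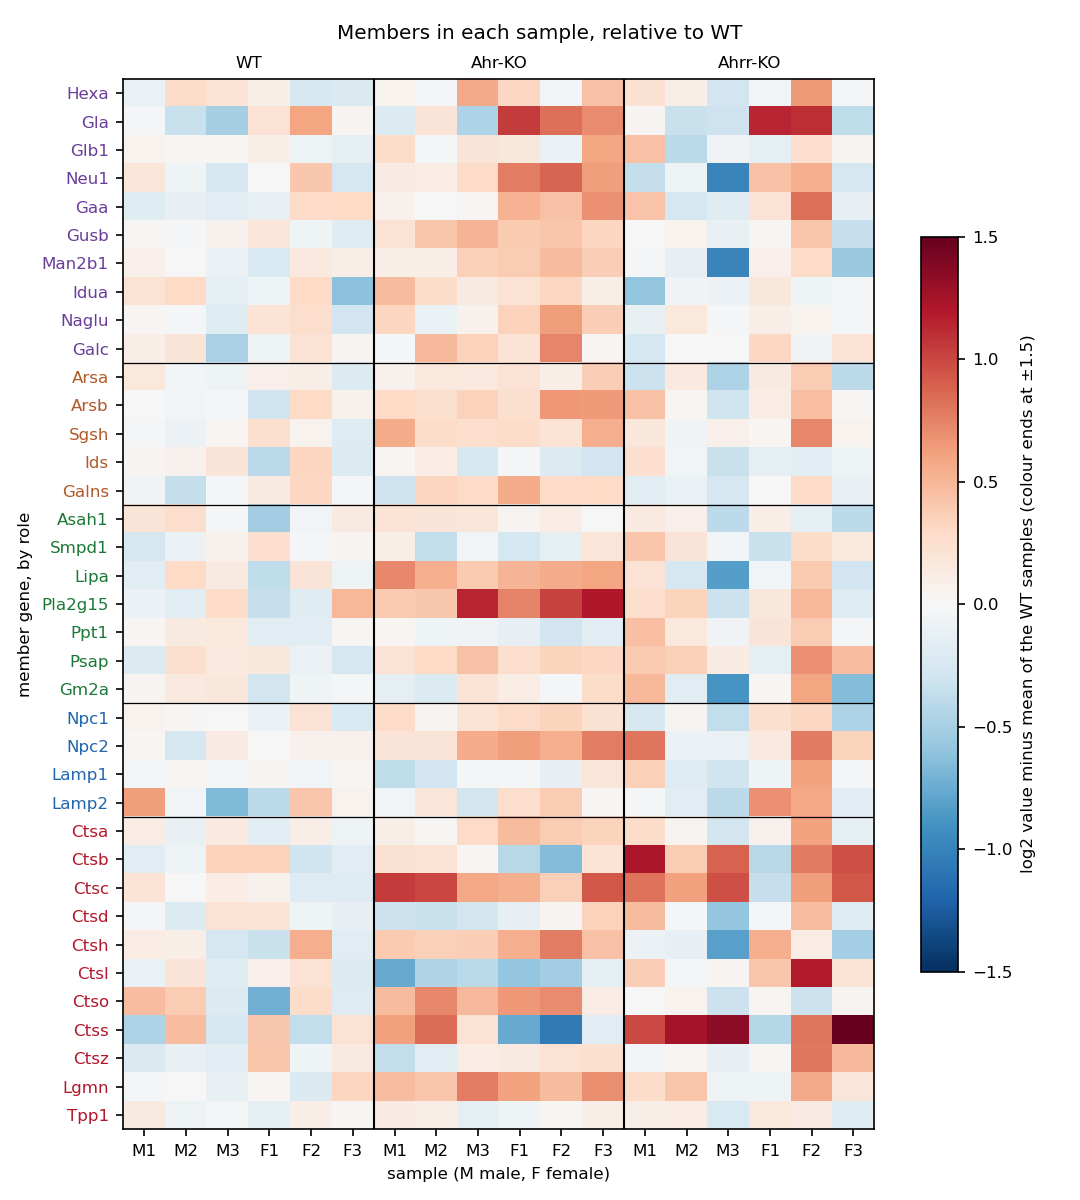
Deposited log2 value of each member in each of the 18 samples, minus the mean of the 6 WT samples for that gene, with genes by role and samples by genotype and sex; colours end at 1.5 above and below. Most members are above the WT mean in Ahr-KO, and *Ctsb*, *Ctsc* and *Ctss* are above it in 5 of the 6 samples labelled Ahrr-KO.

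Between the sexes, 2 of 37 members were called over all 18 samples with genotype in the model, where 3.06% of the 11468 genes tested were called. Both were lower in males (2.46% of all genes tested). The 351 calls over all genes became 142 to 733 with 1 sample left out, the lowest without Ahr-KO M1 and the highest without WT F1. *Gla*, which lies on the X chromosome, had values of 7.76, 7.94 and 8.45 in the 9 males and 7.87, 8.96 and 9.40 in the 9 females. Of the females, Ahrr-KO F3 and WT F3 lay within the range of the males and the other 7 above it. The difference was -0.80 (SE 0.17, adjusted p = 0.0166 by limma) and was called with any 1 sample left out. *Ctsz* had a median of 8.26 and a highest value of 8.48 in males and 8.31, 8.59 and 9.16 in females. WT F2 and Ahrr-KO F1 lay within the range of the males. The difference was -0.38 (SE 0.10, adjusted p = 0.0460 by limma), and the call ended in 13 of the 18 single omissions (adjusted p up to 0.105) and without WT F3 and Ahr-KO F3 together (adjusted p = 0.0846 by limma). Of the marker lists, *H2-Aa* (1.48) and *H2-Ab1* (1.34) were called higher and *Ltf* (-0.84) lower in males. *Ltf* passed the minimum mean only through its level in females, so the filter favoured its direction. All 12 epithelial genes had a higher mean in males. The part of these transcripts in the members' differences was not tested.

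Whether the difference between Ahr-KO and WT depended on sex was tested with an interaction term. By limma 0 of 37 members and 0% of the 11346 genes tested were called (533 had an unadjusted p below 0.05, and voom called 0, with 549). The 1 member with an unadjusted p below 0.05 was *Ctss*, whose difference was 1.38 larger in males (SE 0.40, adjusted p = 0.954 by limma). Of 13 macrophage and dendritic cell genes tested, 10 moved the same way and 6 had an unadjusted p below 0.05, among them *H2-Ab1* (2.30), *Cd74* (2.29) and *H2-Aa* (2.10). Their part in the value of *Ctss* was not tested.

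Genes around the members were looked at by list, and 8 of 76 tested (10.5%) were called between Ahr-KO and WT, where 8.84% of all genes were. Of 17 vacuolar ATPase subunits, 16 were tested and 1 was called higher in Ahr-KO than in WT, *Atp6v1e1* (0.51). Of 10 genes of mannose 6-phosphate tagging, sorting and enzyme activation 1 was called, *Sumf1* (0.49), whose product activates all sulfatases. The tagging and sorting genes of this list were not called. Of 13 regulators and nutrient sensing genes *Rragc* (0.32) was called higher and *Lamtor3* (-0.42) lower, and of the transcription factor genes that drive lysosomal genes, *Tfeb* missed the threshold (0.40, adjusted p = 0.0512 by limma) and *Mitf* (0.20) and *Tfe3* (-0.02) were not called. Of 17 other hydrolases tested *Plbd1* (1.18) was called, and of 15 other membrane proteins *Abca2* (0.46) was called higher and *Laptm4a* (-1.41) and the macrophage-rich *Cd68* (-0.49) lower. None of 5 tested inhibitors of cysteine proteases was called.

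Under single omissions *Plbd1*, *Laptm4a*, *Sumf1* and *Atp6v1e1* were called throughout and *Abca2* lost its call in 1, whereas *Lamtor3*, *Rragc* and *Cd68* lost their calls in 10, 9 and 8 of the 12 single omissions. Between Ahr-KO and the samples labelled Ahrr-KO, the 10 calls among 78 genes tested (12.8%, against 14.9% of all genes) were *Laptm4a* (-1.02), *Slc15a3* (-0.82), *Cd68* (-0.67), *Scpep1* (-0.64), *Fnip1* (0.64), *Atp6v1e1* (0.56), *Manba* (0.50) and *Tfeb* (0.49), with *Abca2* (0.46) and *Sumf1* (0.44). Of these, *Tfeb*, *Fnip1*, *Manba* and *Abca2* each lost the call in 8 of the 12 single omissions (adjusted p up to 0.104), *Sumf1* in 3 and *Atp6v1e1* in 1. *Slc15a3* was not tested between Ahr-KO and WT. It passed the minimum mean only through its level in Ahrr-KO, so the filter favoured its direction. Between Ahrr-KO and WT no gene of the 6 lists was called by limma, with 7 at an unadjusted p below 0.05.

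Promoters of the members were searched because TFEB, a regulator of lysosomal genes, binds an element around CACGTG, and AHR binds one around GCGTG. RefSeq promoter sequences (GRCm38.p6, 250 bases before to 50 after each gene start) were given for 32 of the 37 members, with *Asah1*, *Ctsb*, *Ctsh*, *Galns* and *Npc1* not matched. On either strand, TCACGTGA was found in the promoters of 3 of the 32 members and in 1.12% of the 27025 genes with a promoter, and CACGTG, which lies within it, in 11 of 32 and 8.09%. TNGCGTG was found in 1 of 32 and 5.84%. These are matches of letters and not binding sites.

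The members with TCACGTGA were *Ctsa*, *Ctsd* and *Gla*, none of which was called between genotypes, and *Lgmn* and *Ctsl* were the called members with CACGTG. *Ctsl* also held TNGCGTG. Windows around these matches are shown 5′ to 3′ on the strand of the gene, with the motif in capitals, 1 for each gene and motif. *Ctsa* and *Gla* each held another TCACGTGA that is not shown.
Ctsa (chr2:164833749-164833778, plus strand): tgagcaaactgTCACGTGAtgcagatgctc
Ctsd (chr7:142387908-142387937, minus strand): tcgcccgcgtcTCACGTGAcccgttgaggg
Gla (chrX:134601215-134601244, minus strand): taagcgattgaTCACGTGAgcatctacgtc
Lgmn (chr12:102439124-102439153, minus strand): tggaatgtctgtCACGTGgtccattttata
Ctsl (chr13:64370739-64370768, minus strand): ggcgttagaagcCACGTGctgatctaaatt
Ctsl, TNGCGTG (chr13:64370486-64370515, minus strand): aggcaccacgcTGGCGTGgaccctccaaag
Of the 13 members called in any comparison of genotypes 11 had a promoter entry and 2 of these held CACGTG, against 9 of 21 among the members that were not called. The other members with CACGTG were *Arsa*, *Gaa*, *Glb1*, *Lamp1*, *Naglu* and *Sgsh*.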

How the data were processed

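According to the study's methods and the submitters' processing notes, the authors aligned single-ended reads to GRCm38, counted them per gene (the notes name STAR 2.5.2 and RSEM 1.3.0) and transformed them with DESeq2 in R 4.0.3. The deposited values are variance-stabilized values on a log2 scale. They were turned back into counts, 100% of which were whole (relative tolerance 0.0001, largest deviation 6.9e-14). Whether counting used strand was not given in the sources used here. Genotypes were compared with limma 3.58.1 in R 4.3.3, with a mean-variance trend and sex as covariate, over genes whose mean was at least 1 above the lowest value, with Benjamini-Hochberg adjustment over all genes and a threshold of 0.05. Differences are first group minus second. Marker sums used exact permutation tests (scipy 1.17.1). The calculation was tested on simulated data. Gene positions and lengths are from GENCODE M21. All members are named, with full statistics for those called between genotypes, and of each other lysosomal and marker list the genes called between genotypes. Members and lists were chosen with earlier results of these data known. Alternatives were other filters, scalings, pseudocounts (1 and 8), trends, voom, no sex term, a replicate block, all 18 samples, and each sample left out. Omitting both samples with many genes detected was added after the data were seen.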

Additional observations from a re-analysis of the deposited data

Results flagged for a closer look

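For each member and genotype, the gap between the most extreme sample and its nearest neighbour was compared with the range of the 6 samples. In 6 of 111 groups the gap took up more of the range than the critical value of Dixon's test, which chance alone gives in about 1 group in 20. Among the samples labelled Ahrr-KO, *Ctsc* was 8.16 in F1 with the next sample at 9.13, *Ctsl* was 9.17 in F2 with the next at 8.39, *Sgsh* was 7.38 in F2 with the next at 6.83, and *Idua* was 7.43 in M1 with the next at 7.93. In Ahr-KO, *Galns* was 6.68 in M1 with the next at 7.27. In WT, *Npc2* was 8.87 in M2 with the next at 9.11. Of these genes *Ctsc*, *Ctsl* and *Npc2* were called between genotypes.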

How the results depend on the processing

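Over 20 called differences of members and 494 values under alternatives, 390 kept direction and call, 104 kept direction without the call and 0 changed direction. Between Ahr-KO and WT the 10 called members became 3 with all 18 samples in 1 fit, 6 without WT F3 and Ahr-KO F3 together, 5 to 11 with 1 sample left out, and 12 after quantile normalization (with *Man2b1* and *Sgsh*). Between Ahrr-KO and WT 0 to 2 were called with 1 sample left out. Between Ahr-KO and Ahrr-KO the 8 became 4 without a sex term and 3 to 10 with 1 sample left out. Between the sexes the 2 became 1 without a minimum mean, without a trend, or without WT F3 and Ahr-KO F3 together, and 1 to 3 with 1 sample left out. The cause of these changes was not tested, except that omissions leave fewer samples. Median differences ran from 0.18 to 0.30, from -0.01 to 0.15 and from 0.14 to 0.24 in the 3 comparisons, beside SDs of 0.0775, 0.167 and 0.172 between samples of the members' median deviation; the second changed sign without Ahrr-KO F2. Same-numbered samples did not deviate together (correlations from -0.585 to 0.476), so numbers do not pair the samples; with a replicate block in place of sex 10, 0 and 8 members were called in the 3 comparisons. Raising the minimum mean from 1 to 3 took *Pla2g15* and *Ctsl* out of testing. Of uncalled members, 6 of 27, 14 of 36 and 7 of 29 changed sign under some alternative. The lower depth of WT limits what can be seen for rare members such as *Naglu*.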
